A study of Homo sapiens with 36 samples.

Results

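The 10 genes described here are H19, IGF2, KCNQ1, CDKN1C, GNAS, DLK1, MEG3, PEG10, MEST and SNRPN, a fixed list of human imprinted genes. For each gene the percent of the gene and 20 kb on each side that lay inside enriched chromatin regions, called islands, was measured in all 22 deposited lists. All 10 of 10 genes were placed by their hg19 positions, and 30367 windows of 100 kb across chromosomes 1 to 22 and X served as the background. The gene spans with flanks ran from 43 to 444 kb, so windows and spans are not matched in length. Windows without mappable sequence were not removed. Shares of windows are therefore only a rough guide. Which exons or introns the islands covered was not analysed here, since no hg19 gene annotation was used.

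Chromatin immunoprecipitation and sequencing were done for macroH2A1, macroH2A1.2 and γH2AX, mostly in K562 cells, a widely used leukaemia line of human origin. The series asks where these proteins lie before and after replication stress and when macroH2A is deficient. Cells were untreated or were given aphidicolin, an inhibitor of replicative DNA polymerases, and the titles fall into 4 naming styles, called title sets 1 to 4 here. Set 1 holds macroH2A1 (2 untreated and 2 aphidicolin lists) and γH2AX (2 and 2) in K562, and its aphidicolin titles carry the number 0.5 without a unit. Set 2 holds macroH2A1.2 (2 and 2) and γH2AX (2 and 2) in K562, with replicate numbers 1 and 3. Set 3 holds γH2AX in K562 (1 and 1) and in a line labelled 2A3 (1 and 1), whose origin the labels do not give. Set 4 holds macroH2A1.2 in untreated K562 with the hairpin sh-RFP (1 list) or sh-mH1.2 (1 list). Whether replicate lists stem from separate cultures is not given, and each p-value therefore reflects list-to-list spread that may be technical.

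Imprinted genes are expressed from the copy inherited from 1 parent, and their domains pair a silent and an active allele at the same position. MacroH2A, an H2A variant that carries a macro domain, is enriched on silent chromatin such as the inactive X, and has been studied at imprinted control regions. γH2AX is the phosphorylated form of H2AX that marks DNA breaks and stalled replication forks. Islands carry no allele information, so a covered stretch may be covered on either or both copies.

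Depth differed among the lists. Reads in islands per list ran from 39027158 to 48662391 for macroH2A1, from 9641246 to 12524522 for macroH2A1.2 in set 2, and from 2405707 to 26508284 for γH2AX in K562. Islands covered 10.93 and 11.3% of the genome span in untreated macroH2A1 and 14.44% in each aphidicolin list of that target. The shares were 7.958 and 9.413% against 10.1 and 10.47% for macroH2A1.2. For γH2AX they ran from 1.271 to 2.809% in untreated K562 and from 2.126 to 7.746% under aphidicolin. In set 2 aphidicolin replicate 3 covered 2.398%, within the untreated range, and so did the set 3 aphidicolin list.

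Promoter sequences are shown as examples for genes that differed in macroH2A coverage at the gene start. IGF2, the highest of the 10 genes at 100%, had no entry. Of the 10 genes, 5 had an entry in the RefSeq promoter table of GRCh38.p14, which holds 250 bases before and 50 after a transcript start. The mean coverage of the 2 kb around the gene start over the 8 macroH2A lists of sets 1 and 2 was highest for MEST among these 5 (88.8%), lowest for SNRPN (0%) and in between for H19 (33.8%). Capitals mark CG pairs, the letters CG read on the printed strand, which are the positions that DNA methylation uses. Where a gene had several entries, that with most CG pairs is shown, a choice made after the counts were seen. No shown entry, that of H19 included, need lie at the hg19 start where coverage was measured.
MEST, chr7:130491835-130492134, plus strand: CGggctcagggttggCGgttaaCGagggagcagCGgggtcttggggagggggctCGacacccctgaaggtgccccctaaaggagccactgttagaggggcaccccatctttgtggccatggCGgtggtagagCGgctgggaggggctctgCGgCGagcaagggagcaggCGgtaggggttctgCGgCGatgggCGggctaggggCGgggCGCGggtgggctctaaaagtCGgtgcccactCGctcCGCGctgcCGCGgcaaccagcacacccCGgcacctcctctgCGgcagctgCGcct
SNRPN, chr15:24954737-24955036, plus strand: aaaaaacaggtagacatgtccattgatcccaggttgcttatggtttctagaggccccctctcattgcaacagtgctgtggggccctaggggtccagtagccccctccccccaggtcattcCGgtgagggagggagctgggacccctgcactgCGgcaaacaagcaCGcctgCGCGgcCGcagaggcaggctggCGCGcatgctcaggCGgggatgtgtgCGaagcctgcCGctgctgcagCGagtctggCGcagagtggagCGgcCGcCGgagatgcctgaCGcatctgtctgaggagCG
H19, chr11:2001217-2001516, minus strand: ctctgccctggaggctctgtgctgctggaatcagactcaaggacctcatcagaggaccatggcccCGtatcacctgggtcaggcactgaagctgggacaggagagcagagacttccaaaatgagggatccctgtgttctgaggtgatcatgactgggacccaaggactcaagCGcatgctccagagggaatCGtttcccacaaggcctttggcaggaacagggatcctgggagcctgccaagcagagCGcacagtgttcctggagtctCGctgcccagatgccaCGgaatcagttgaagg
The MEST entry held 25 CG pairs (its 5 entries went down to 13), a number reached by 32.0% of 35116 promoter entries. That of SNRPN held 18, reached by 44.5%, and its 4 entries went down to 2. H19 has 1 entry, which held 6, reached by 66.3%. The GNAS entry with most CG pairs held 43 (its 6 entries went down to 10), reached by 4.98%, with a mean of 28.8% at the gene start. The MEG3 entry held 19, reached by 42.9%, with a mean of 50% at the gene start. With counts that depend this much on the entry, no relation to macroH2A coverage was read from them.

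In untreated K562 much of the H19 to CDKN1C region of chromosome 11 lay inside macroH2A islands, while PEG10 and SNRPN lay outside them. The coverage was neither even nor confined to these genes. Mean untreated macroH2A1 coverage was 93.8, 77 and 99% in the windows from chr11:1600001 to chr11:1900000, before H19. It was 32.5% at chr11:2600001-2700000 inside KCNQ1 and 41.8% at chr11:2900001-3000000, which holds CDKN1C. Past CDKN1C it was 13.5% at chr11:3000001-3100000 and 72.7% at chr11:3200001-3300000. Genes at least 50% covered in both lists of a group numbered 4 of 10 for untreated macroH2A1 (H19, IGF2, KCNQ1 and CDKN1C), a level reached by 7.81% of all windows. The same 4 genes passed in aphidicolin macroH2A1, where 11.1% of windows did. For macroH2A1.2, 3 genes passed when untreated (H19, IGF2 and KCNQ1), against 4.6% of windows, and 2 under aphidicolin (IGF2 and KCNQ1), against 6.4%. In all 8 lists 2 genes passed (IGF2 and KCNQ1), against 3.27% of windows. At a minimum of 10% the numbers were 8 and 7 genes for untreated and aphidicolin macroH2A1 (22.9 and 28.1% of windows) and 5 and 5 for macroH2A1.2 (19.3 and 22.3%). At 90% they were 2 and 1 for macroH2A1 (1.7 and 2.48% of windows) and 0 and 0 for macroH2A1.2 (0.57 and 0.899%). The members were chosen with earlier results known, and 4 of them are neighbours on 1 chromosome arm, so these counts are a description.

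**Figure D1:**
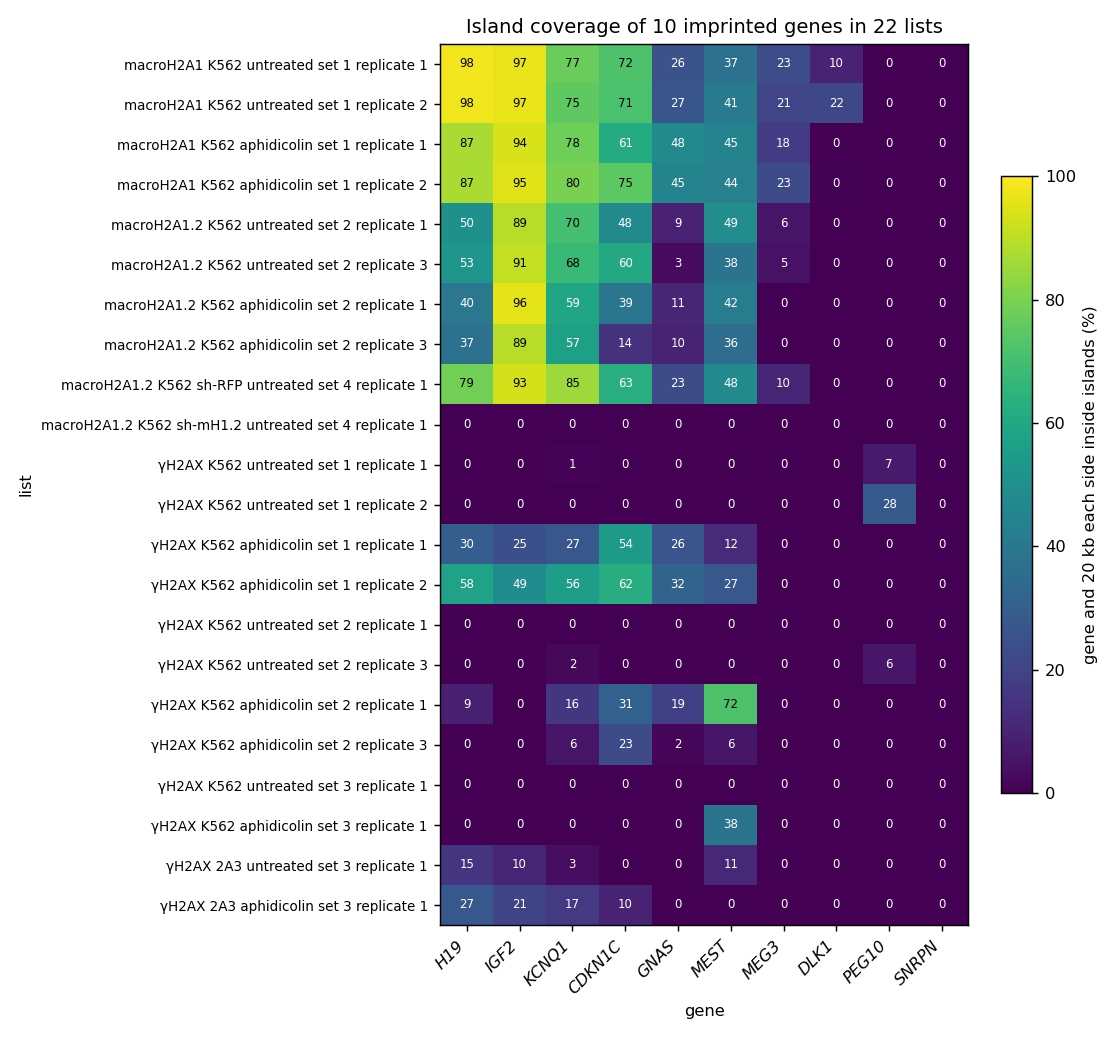
Percent of each gene and 20 kb each side inside islands, by gene (columns) and list (rows), with the value printed in each cell. The 8 macroH2A lists of sets 1 and 2 are at 56.9% or more at IGF2 and KCNQ1, while H19 and CDKN1C go down to 37.2 and 14.4% in aphidicolin macroH2A1.2 lists, the sh-mH1.2 list is at 0 for all 10 genes, and SNRPN is at 0 in all 22 lists.

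H19 (hg19 chr11:2016001-2019000) encodes a maternally expressed long noncoding RNA. With its flanks it was 98.1 and 97.7% covered by macroH2A1 in the 2 untreated lists and 87.4% in each aphidicolin list. Coverage by macroH2A1.2 was 50.2 and 52.6% untreated and 39.5 and 37.2% under aphidicolin. Both targets were therefore lower under aphidicolin at H19, without overlap between treatments, and macroH2A1 was higher than macroH2A1.2 in every list of these sets. The difference was -10.47 percentage points for macroH2A1 (SE 1.33, limma adjusted p = 0.0467, adjusted over all windows and genes). For macroH2A1.2 the difference was -13.02 points (SE 2.17, limma adjusted p = 0.0357). Neither held when any 1 of the 4 lists of its fit was left out (limma adjusted p from 0.135 to 0.199 and from 0.108 to 0.162). With a flank of 50 kb the differences were -2.82 and -5.34 points and did not pass (limma adjusted p = 0.446 and 0.147), and neither passed at equal covered length (0.175 and 0.233). The stretch chr11:2024001-2035400, beyond the start of the gene, was covered in all 8 lists of sets 1 and 2. The gene body itself was at least 86.7% covered by macroH2A1, and by macroH2A1.2 it was at 100% in untreated replicate 3 and at 0 in the other 3 lists. The 4 macroH2A1.2 lists of set 2 had no island over chr11:2003401-2014600, beyond the end of H19, where macroH2A1 lost 3.4 kb under aphidicolin (chr11:2009001-2012400, in both untreated lists and neither treated list).

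IGF2 (chr11:2150001-2171000), which encodes a paternally expressed growth factor, was at least 89.2% covered in all 8 lists of sets 1 and 2. MacroH2A1 covered 96.7% in both untreated lists and 94.1 and 95.1% under aphidicolin. MacroH2A1.2 covered 89.2 and 90.8% untreated and 95.7 and 89.2% under aphidicolin. Neither difference passed the test: -2.13 points (SE 1.37, limma adjusted p = 0.353) and 2.46 points (SE 3.1, limma adjusted p = 0.599). The 2 kb around its start was 100% covered in each of the 8 lists. The islands were also dense there, with reads per kb at 1.29 to 1.64 times the mean of their own list. Between 0.494 and 1.95% of windows reached the level of IGF2 in these 8 lists, although the windows are longer than its span of 61 kb.

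KCNQ1 (chr11:2466001-2870000), which encodes a potassium channel subunit, hosts the imprinted antisense RNA KCNQ1OT1 and its control region. Its span overlaps that of CDKN1C at the edge, so the values of the 2 genes share that stretch. MacroH2A1 covered 77 and 75.1% untreated and 78.1 and 80% under aphidicolin. MacroH2A1.2 covered 70.3 and 67.6% untreated and 59 and 56.9% under aphidicolin. The macroH2A1.2 lists thus fell without overlap, while both treated macroH2A1 lists stood slightly above the untreated ones. The difference was -10.97 points for macroH2A1.2 (SE 2.19, limma adjusted p = 0.0481) and 2.93 points for macroH2A1 (SE 1.67, limma adjusted p = 0.31). Without any 1 of its 4 lists the macroH2A1.2 call was lost (limma adjusted p from 0.118 to 0.201). It held with each list reduced to its densest islands until all covered an equal length, at -14.32 points (limma adjusted p = 0.0323). It was lost in the other 7 alternatives run, with flanks of 0 or 50 kb (limma adjusted p = 0.0541 and 0.0533), the upper 50% of islands (0.0726), the arcsine scale (0.0913), the replicate block (0.0951), no filter (0.186) and log2 reads (0.202).

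The change at KCNQ1 was not spread evenly along the gene. The first part, from chr11:2446001 to chr11:2626000, was at least 69% covered in each 20-kb segment of each of the 8 lists. A gap followed, and 2 stretches in it, chr11:2669401-2696800 (27.4 kb) and chr11:2701001-2722400 (21.4 kb), had no macroH2A island in any of the 8 lists. On the near side of the gap, in segment chr11:2646001-2666000, mean coverage was 8.5% untreated and 47% under aphidicolin for macroH2A1, and 27.5 and 64% for macroH2A1.2. Past the gap macroH2A1 stayed high while macroH2A1.2 was lower under aphidicolin. In the segment chr11:2786001-2806000 both aphidicolin macroH2A1.2 lists were at 0, against 48 and 55% untreated, and macroH2A1 was at 58 to 66% in all 4 lists.

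**Figure D2:**
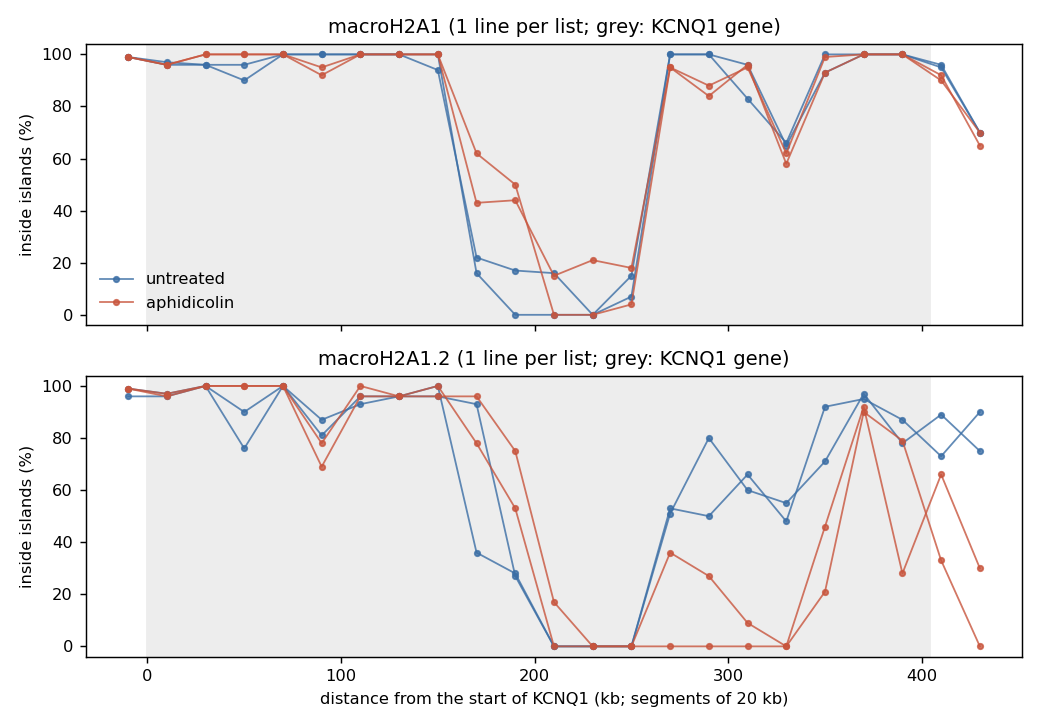
Percent of each 20-kb segment inside islands by distance from the start of KCNQ1 (kb), with 1 line per list, for macroH2A1 (upper panel) and macroH2A1.2 (lower panel). Beyond the gap, the 2 aphidicolin macroH2A1.2 lists lie below the untreated ones over all segments but 1, down to 0% at 2786001 to 2806000, while the 4 macroH2A1 lists lie close together.

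Of 14 windows of 100 kb that held a gene and were tested for macroH2A1.2, 2 were lower under aphidicolin and 0 higher. Among all windows 6.75% were lower and 15.3% higher. Both called windows overlap the far part of KCNQ1 and rest on the same lists, so they are not separate evidence. They were not checked against the alternatives used for the genes. In the window chr11:2700001-2800000 macroH2A1.2 covered 43 and 49.2% untreated and 14.4 and 0% under aphidicolin, a difference of -38.9 points (SE 6.16, limma adjusted p = 0.0327). In the next window, chr11:2800001-2900000, it covered 82 and 78.2% untreated and 55.6 and 49.4% under aphidicolin, a difference of -27.6 points (SE 3.26, limma adjusted p = 0.0213). MacroH2A1 covered 67.4 to 73.6% of the first and 88 to 90.8% of the second in its 4 lists. The effect of aphidicolin differed between the targets in both windows, by 35.8 points (SE 7.23, limma adjusted p = 0.039) and 27.1 points (SE 3.82, limma adjusted p = 0.0177). Over the whole KCNQ1 span it differed by 13.9 points (SE 2.53, limma adjusted p = 0.031), a call lost in 7 of the 8 fits that left out 1 list (limma adjusted p from 0.0561 to 0.103). The signed difference, macroH2A1 minus macroH2A1.2, was called above 0 at 2 of 8 genes tested (KCNQ1 and GNAS) and below 0 at 0, and 7.06% of windows were called above and 3.13% below. At KCNQ1 its parts are the 2.93 points of macroH2A1 and the -10.97 points of macroH2A1.2. This comparison sets title set 1 against title set 2, so the target and the set cannot be told apart. In all, 41.4 kb of the KCNQ1 span (9.32%) lost macroH2A1.2 and 4.2 kb (0.946%) gained it, counting stretches covered in both lists of 1 treatment and neither of the other. For macroH2A1 4.8 kb were lost and 9.8 kb gained.

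CDKN1C (chr11:2904001-2907000), which encodes the maternally expressed cell cycle inhibitor p57, lies just past KCNQ1. MacroH2A1 covered 72.1 and 71.2% untreated and 61.4 and 74.9% under aphidicolin, so the treatments overlapped. MacroH2A1.2 covered 47.9 and 60.5% untreated and 39.1 and 14.4% under aphidicolin, without overlap but with wide spread between the treated lists. The macroH2A1.2 difference of -27.44 points did not pass (SE 10.6, limma adjusted p = 0.15), and it passed with lists cut to equal covered length (-43.95 points, limma adjusted p = 0.0328). Islands flanked CDKN1C more than they covered it. The gene body itself was 0 to 13.3% covered in these 8 lists, its downstream flank 31 to 91%, and no macroH2A1.2 list of set 2 had an island over chr11:2904401-2914200.

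**Figure D3:**
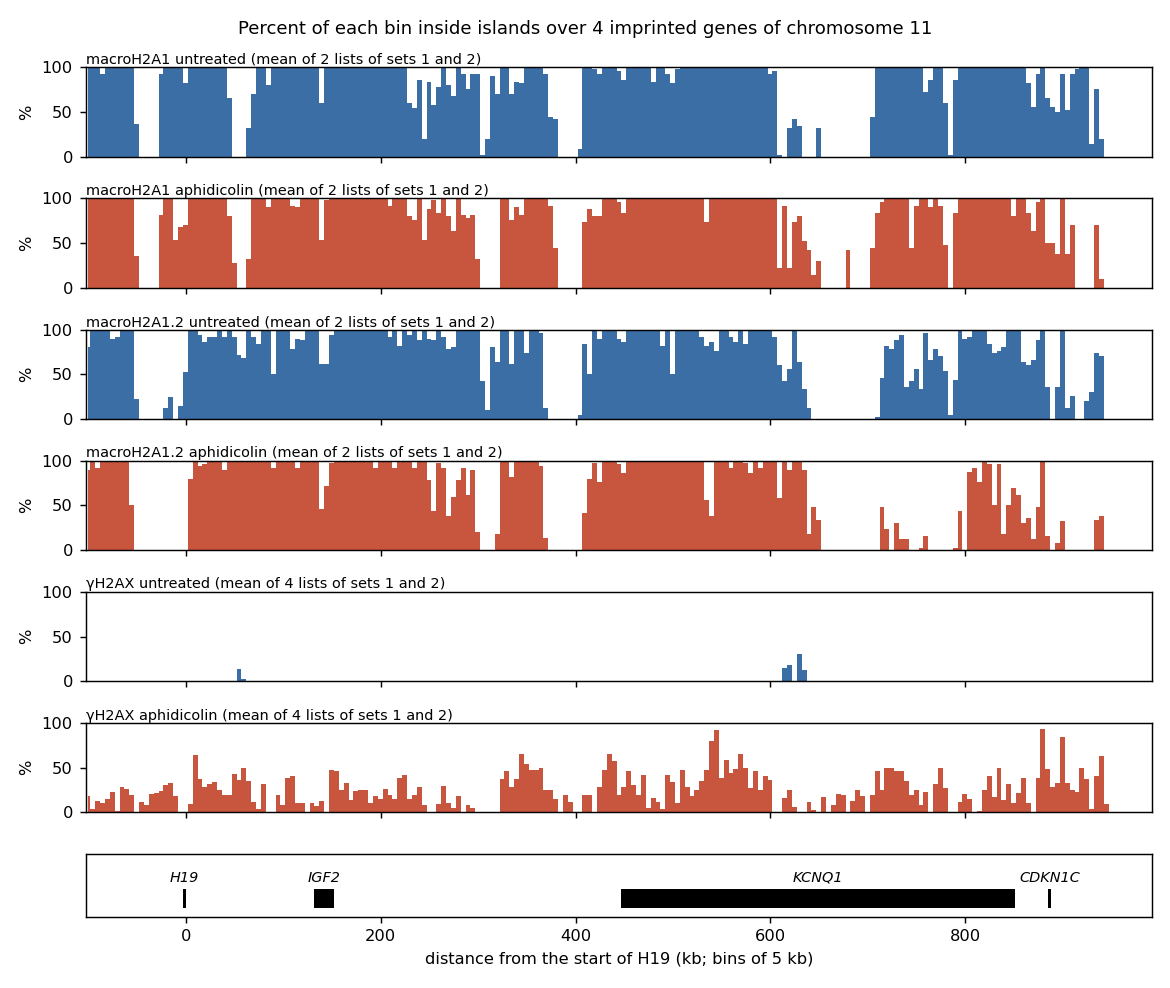
Mean percent of each 5-kb bin inside islands by distance from the start of H19 (kb), for each target and treatment in title sets 1 and 2, with gene positions as black bars. Both macroH2A targets cover most of IGF2 and the first part of KCNQ1, and macroH2A1 also covers most of H19. The mean macroH2A1.2 coverage of the H19 span is 51.4% untreated and 38.4% under aphidicolin. γH2AX appears under aphidicolin across the region, and the macroH2A1.2 signal of the far part of KCNQ1 is lower under aphidicolin.

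The 3 pairs of members with the largest Pearson correlation of percent covered over the 22 lists were IGF2 with KCNQ1 (0.975), H19 with KCNQ1 (0.946) and H19 with CDKN1C (0.909). Pairs across chromosomes also ranked high, with H19 and MEG3 at 0.872 and CDKN1C and GNAS at 0.835, above IGF2 and CDKN1C at 0.816. These points share targets, depth and neighbouring chromatin, and the values are a description.

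DLK1 (chr14:101193001-101201000), a paternally expressed membrane protein of the Notch ligand family, had little macroH2A. MacroH2A1 covered 10 and 21.7% untreated and 0 and 0.4% under aphidicolin, all of it upstream of the gene, and macroH2A1.2 covered 0% in all 4 lists. The macroH2A1 difference of -15.62 points did not pass (SE 4.69, limma adjusted p = 0.13). MEG3 (chr14:101292001-101327000), the maternally expressed noncoding RNA of the same domain, was covered at 23.5 and 21.1% by untreated and at 17.6 and 23.2% by aphidicolin macroH2A1. Its macroH2A1.2 values were 5.6 and 4.8% untreated and 0% in both aphidicolin lists, a difference that did not pass (-5.2 points, SE 1.81, limma adjusted p = 0.128). In the 2 kb around the MEG3 start all 4 macroH2A1 lists were at 100% and all 4 macroH2A1.2 lists at 0%. From chr14:101296201 to chr14:101338200 none of these 8 lists had an island.

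SNRPN (chr15:25049001-25244000 with flanks), a paternally expressed gene of the Prader-Willi region, was at 0% in all 22 lists. Its nearest macroH2A island in sets 1 and 2 lay 195 to 1123 kb from the span. PEG10 (chr7:94266001-94319000 with flanks), a paternally expressed gene derived from a retrotransposon, was at 0% in all 10 macroH2A lists. The nearest macroH2A island in sets 1 and 2 lay 23.6 to 440 kb away. A value of 0 in all 8 lists of sets 1 and 2 was found in 47.5% of windows.

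GNAS (chr20:57415001-57486000), which encodes the stimulatory G protein alpha subunit and several imprinted transcripts, differed between treatments in macroH2A1. MacroH2A1 covered 25.8 and 26.7% untreated and 47.7 and 45% under aphidicolin. MacroH2A1.2 covered 9.2 and 3.1% untreated and 10.8 and 9.9% under aphidicolin. The macroH2A1 lists rose by 20.2 points without overlap (SE 1.71, limma adjusted p = 0.0387), and the macroH2A1.2 difference was 4.23 points (SE 2.93, limma adjusted p = 0.346). Aphidicolin macroH2A1 lists also covered more of the genome, and with lists cut to equal covered length the GNAS difference turned to -2.97 points (limma adjusted p = 0.873). The call was lost without any 1 of the 4 lists (limma adjusted p from 0.122 to 0.191). The gene itself was 7.32 and 13.8% covered by macroH2A1 untreated and 30.4 and 29.3% under aphidicolin. The upstream flank was 75 and 45% covered untreated and 95 and 100% under aphidicolin, and the downstream flank 42 to 62% in the 4 lists. The 3 stretches of at least 1 kb covered in both aphidicolin lists and neither untreated one all lay in the gene (chr20:57417201-57421000, chr20:57435201-57438000 and chr20:57441401-57443000). MacroH2A1.2 lay in the downstream flank alone when untreated, at 51 and 17%. Under aphidicolin it covered 29 and 48% of the upstream flank, 8.73 and 0% of the gene and 0 and 7% of the downstream flank. The stretch chr20:57443801-57493400 (49.6 kb) had no macroH2A island in any of the 8 lists.

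MEST (chr7:130126001-130146000), a paternally expressed hydrolase-like gene, had macroH2A on its upstream side and in the first part of the gene. MacroH2A1 covered 37.3 and 41% untreated and 44.7 and 43.7% under aphidicolin, and macroH2A1.2 covered 49 and 38.3% untreated and 42.3 and 35.7% under aphidicolin. Neither difference passed: 5 points (SE 1.97, limma adjusted p = 0.189) and -4.67 points (SE 5.05, limma adjusted p = 0.537). The upstream flank was 70 to 100% covered in the 8 lists and the downstream flank 0%. The 2 kb around the gene start had a mean of 88.8% over these lists. None of the 8 lists had an island in chr7:130137401-130166000.

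**Figure D4:**
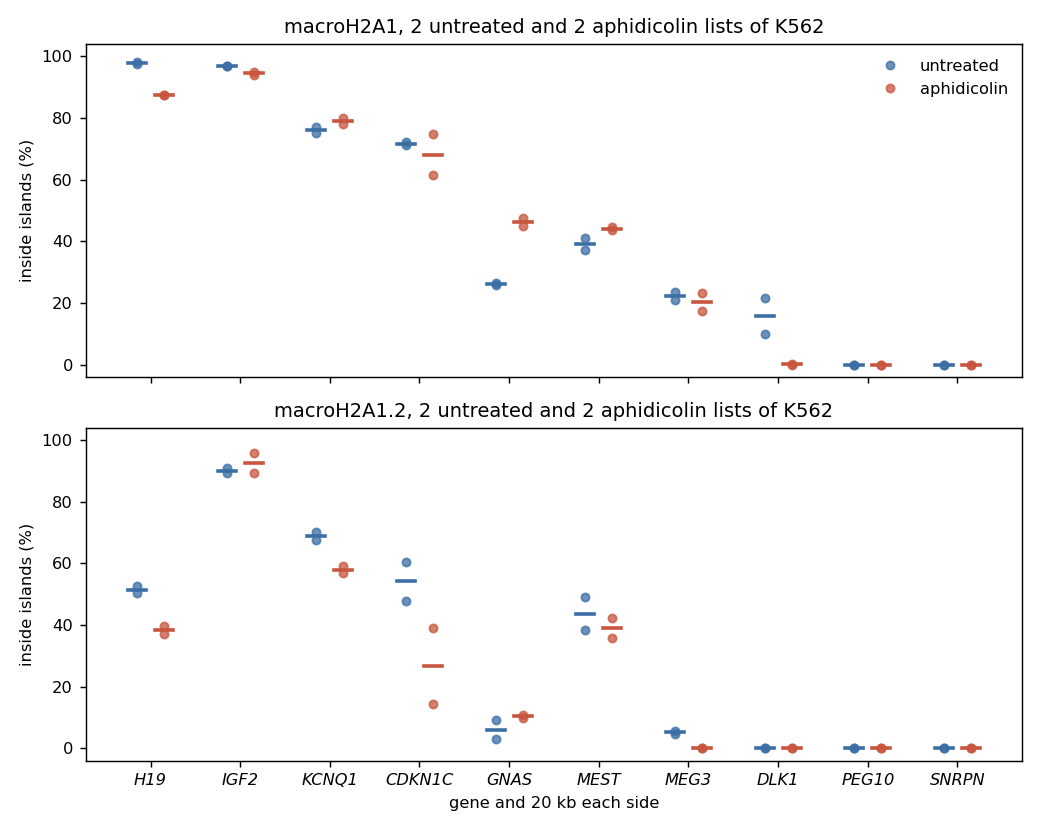
Percent of each gene and 20 kb each side inside macroH2A1 islands (upper panel) and macroH2A1.2 islands (lower panel), with a dot per list and a bar at the mean of 2 lists, untreated in blue and aphidicolin in red. The treatments do not overlap for H19, IGF2, KCNQ1, GNAS, DLK1 and MEST in the upper panel and for H19, KCNQ1, CDKN1C, GNAS and MEG3 in the lower panel, and H19 and GNAS (upper) and H19 and KCNQ1 (lower) passed the limma test.

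Counted over the list, macroH2A1 under aphidicolin was higher at 1 of 8 genes tested (GNAS) and lower at 1 (H19). Among 12732 windows 6.71% were called higher and 0.11% lower. MacroH2A1.2 was higher at 0 and lower at 2 of 7 genes tested (H19 and KCNQ1), and 15.3% of 12335 windows were higher and 6.75% lower. At an unadjusted limma p under 0.05 the number of genes higher for macroH2A1.2 was also 0. Without regard to a test, both aphidicolin lists lay above both untreated lists at 3 genes for macroH2A1 (57.6% of windows) and below at 3 (7.12%). For macroH2A1.2 they lay above at 1 gene (41.4%) and below at 4 (29.0%). The median difference over the genes tested was -1.999 points for macroH2A1 and -5.20 for macroH2A1.2, against 4.9 and 1.5 points over all windows tested. PEG10 and SNRPN, and for macroH2A1.2 also DLK1, were covered in fewer than 2 lists and were not tested. With 2 lists against 2 an exact permutation test of a single gene cannot go below 0.333.

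Over both treatments macroH2A1 covered more than macroH2A1.2 at 5 of 8 genes tested, where 25.3% of 14320 windows were higher and 2.75% lower. The differences were 47.8 points at H19 (SE 1.33, limma adjusted p = 1.109e-05), 28.1 at GNAS (SE 3.53, limma adjusted p = 0.00273) and 18.7 at MEG3 (SE 1.72, limma adjusted p = 0.00101). They were 29.4 points at CDKN1C (SE 7.66, limma adjusted p = 0.0314) and 14.1 at KCNQ1 (SE 3.02, limma adjusted p = 0.0167). IGF2 differed by 4.43 points (SE 1.91, limma adjusted p = 0.131) and MEST by 0.333 (SE 3.34, limma adjusted p = 0.954). The CDKN1C call was lost in 6 of the 8 fits that left out 1 list (limma adjusted p from 0.053 to 0.0736), and held without macroH2A1.2 untreated replicate 3 or aphidicolin replicate 3. With lists cut to equal covered length the GNAS and MEG3 differences were 0.856 and 2.47 points and did not pass (limma adjusted p = 0.778 and 0.54). The macroH2A1 lists are all of title set 1 and the macroH2A1.2 lists of title set 2, so target and set, with its greater number of reads in islands, cannot be told apart. The sh-RFP list of macroH2A1.2 (set 4) was not in this fit. It covered 85.3% of KCNQ1, above all 4 macroH2A1 lists. It covered 63.3% of CDKN1C, above macroH2A1 aphidicolin replicate 1 and below the other macroH2A1 lists. At the other called genes it lay below all 4 macroH2A1 lists, with 78.6% of H19, 23.4% of GNAS and 10.4% of MEG3.

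The pair of hairpin lists compared macroH2A1.2 with and without the hairpin sh-mH1.2. Reads in islands were 2022630 with sh-mH1.2 and 75168077 with sh-RFP, and the name of the sh-RFP list marks it as merged. With sh-mH1.2 the macroH2A1.2 list covered 23.71 Mb, against 418.4 Mb with sh-RFP, and 88.2% of windows touched by the sh-RFP list were at 0 with sh-mH1.2. The sh-RFP list covered 78.6% of H19, 93.4% of IGF2, 85.3% of KCNQ1, 63.3% of CDKN1C, 23.4% of GNAS, 10.4% of MEG3 and 47.7% of MEST. All 10 genes were at 0% with sh-mH1.2. With both lists cut to equal covered length, the sh-RFP list kept 1 gene, KCNQ1 at 4.46%. There is 1 list of each hairpin, so no test was made.

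In untreated K562 γH2AX was nearly absent from the 10 genes. Of the 5 lists, KCNQ1 was at 1.2 and 2.3% in 2 and at 0 in 3, and PEG10 was at 7.2, 28.3 and 6% in 3 and at 0 in 2. The other 8 genes were at 0 in all 5 lists. Low coverage was general, since each of these lists touched only 9.43 to 20.2% of all windows. The highest untreated PEG10 value came from set 1 replicate 2. PEG10 was at 0 in all 5 aphidicolin lists, a difference of -8.3 points (exact permutation p = 0.167, two-sided). In 0.691% of windows all 5 aphidicolin lists lay below all 5 untreated lists, which was not so for PEG10 since 2 untreated lists were also at 0.

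Under aphidicolin γH2AX islands appeared in the spans, gene and flanks together, of the chromosome 11 genes, GNAS and MEST. On chromosome 11 they were not confined to the genes, with means over the 5 lists of 17.9% at chr11:1600001-1700000 and 20% at chr11:3200001-3300000. MEST was covered at 12.3 and 27% in set 1, 72 and 5.7% in set 2 and 38.3% in set 3, and it was above 0 in all 5 lists against 0 in all 5 untreated lists. Its mean rose by 31.1 points (SE 11.7, limma adjusted p = 0.1). The exact permutation p was 0.0278, two-sided over 72 assignments within title sets, which is the smallest this design can give. Without set 2 aphidicolin replicate 3 MEST passed (40.1 points, limma adjusted p = 0.0429). In 8.34% of 13456 windows all 5 aphidicolin lists lay above all 5 untreated lists. In the set 3 list and in set 2 replicate 3 the gene body of MEST was at 0 and the islands lay in the flanks.

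CDKN1C was covered at 54.4 and 62.3% in set 1, 31.2 and 23.3% in set 2 and 0% in set 3, a mean difference of 34.2 points (SE 8.37, limma adjusted p = 0.0533). It passed without set 2 aphidicolin replicate 3 (limma adjusted p = 0.0449) and without either set 3 list (limma adjusted p = 0.00949 and 0.00942). KCNQ1 was at 27.2 and 55.8% in set 1, 16.3 and 5.7% in set 2 and 0% in set 3, a difference of 20.3 points (SE 8.13, limma adjusted p = 0.112). GNAS was at 26.3 and 31.9% in set 1, 19.1 and 1.8% in set 2 and 0% in set 3, a difference of 15.8 points (SE 5.31, limma adjusted p = 0.084). GNAS also passed without set 2 aphidicolin replicate 3, at 0.0444, and without either set 3 list, at 0.0421 and 0.0419 (limma adjusted p). At KCNQ1, CDKN1C and GNAS the values were highest in set 1 and at 0 in set 3. The exact permutation p was 0.0556 for each of these 3 genes, which were above the untreated lists in 2 of 3 sets.

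H19 was at 29.8 and 57.7% in set 1, 8.8 and 0% in set 2 and 0% in set 3, and IGF2 at 24.6 and 48.5% in set 1 and 0% in the other 3 lists. Their differences were 19.3 points (exact permutation p = 0.167) and 14.6 points (exact permutation p = 0.333). The H19 values came from the flanks. Neither aphidicolin list of set 1 had a γH2AX island over chr11:2008401-2024200, which holds the H19 gene body. In set 2 replicate 1 all γH2AX at H19 lay inside macroH2A1.2, which had no island over chr11:1996001-2021200 under aphidicolin. DLK1, MEG3 and SNRPN had no γH2AX island in any of the 12 lists, and 43.5% of windows were at 0 in the 10 K562 lists. Over the 7 genes tested limma called 0 higher and 0 lower, with 4 higher and 0 lower at an unadjusted p under 0.05. On the arcsine scale limma called 5 of these genes higher, and on log2 reads 5 higher and 1 lower. At least 10% of the span was covered in at least 4 of 5 lists for 0 genes untreated (2.67% of windows) and for 2 under aphidicolin, MEST and CDKN1C (6.49%). At 50% the count was 0 in both (0.244 and 0.448% of windows) and at 90% also 0 (0.0856 and 0.128%). Among windows 3.79% were called higher and 1.34% lower. The median difference was 19.3 points over the 7 genes and 4.28 points over all windows tested.

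**Figure D5:**
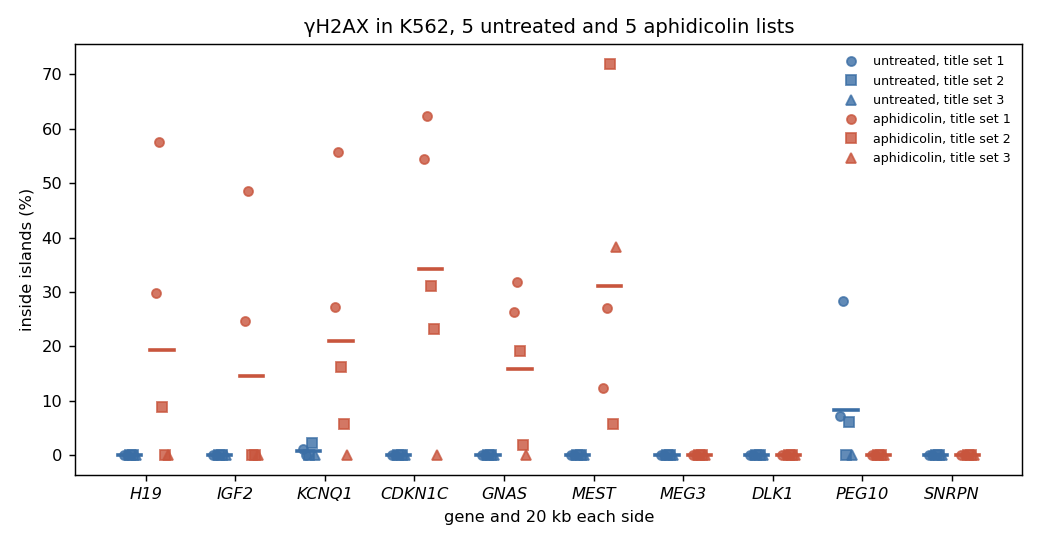
Percent of each gene and 20 kb each side inside γH2AX islands of K562, with a point per list (shape for title set, blue untreated, red aphidicolin) and a bar at the mean of 5 lists. MEST is the gene with all 5 aphidicolin points above 0, and set 3 aphidicolin points lie at 0 for the other genes.

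The title sets differed in size of response. At CDKN1C the aphidicolin difference was 31.2 points larger in set 1 than in set 2 (SE 5.28, limma adjusted p = 0.0281), where 8.83% of 13100 windows were higher in set 1 and 1.22% lower. The same comparison did not pass at the other 6 genes tested, among them H19 (39.3 points, SE 13.1, limma adjusted p = 0.144) and MEST (-19.17 points, SE 30.2, limma adjusted p = 0.736). With lists cut to equal covered length the CDKN1C difference between sets was 6.28 points (limma adjusted p = 0.698). It was also lost without set 1 aphidicolin replicate 2 or without any 1 of the 4 untreated lists (limma adjusted p from 0.0865 to 0.116).

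Most γH2AX in these genes lay inside macroH2A islands of the list with the same title set, treatment and replicate number. Over the 10 genes the share was 94.1 and 85.9% in the aphidicolin lists of set 1, against macroH2A1, where it was 62.4% in both over the whole genome span. In set 2, against macroH2A1.2, it was 70.7 and 80.9%, against 40.4 and 50.2% over the genome span. The macroH2A lists covered 14.44% of the genome span in each set 1 list and 10.47 and 10.1% in set 2. They covered far more of H19, IGF2 and KCNQ1, so the gene and genome shares have unlike baselines. Whether overlap was closer at the genes was not tested. At KCNQ1 the shares of γH2AX inside macroH2A were 98.5, 87.5, 88.4 and 89.8% in the 4 aphidicolin lists of sets 1 and 2. MacroH2A lay over 78.1, 80, 59 and 56.9% of that span. In the 3 untreated lists with γH2AX at PEG10 or KCNQ1, 20, 0 and 0% lay inside macroH2A. Along KCNQ1 the γH2AX mean of the 4 aphidicolin lists of sets 1 and 2 was highest at chr11:2546001-2566000 (63.8%, from 32 to 96%). It was lowest inside the span at chr11:2646001-2666000 (3.75%, from 0 to 15%), apart from the last 4 kb, which was at 0. At MEST the overlap varied, with 100, 23.5, 51.4 and 100% of γH2AX inside macroH2A in the 4 lists. It also varied at GNAS (83.6, 75.1, 35.9 and 100%) and at CDKN1C (75.2, 94.8, 85.1 and 48%). At H19 and IGF2 it was 100% in each of these lists that had γH2AX there. MacroH2A1 covered at least 87.4% of both spans in set 1, and macroH2A1.2 covered 39.5% of H19 in set 2 replicate 1.

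Line 2A3 was compared with K562 in set 3, with 1 list per line and treatment and so without a test. Untreated 2A3 had γH2AX over 15.3% of H19, 10.5% of IGF2, 3.2% of KCNQ1 and 11.3% of MEST, and untreated K562 over none of the 10 genes. With aphidicolin 2A3 had 27.4% of H19, 20.7% of IGF2, 16.9% of KCNQ1 and 9.8% of CDKN1C, with MEST at 0. Aphidicolin K562 had MEST alone, at 38.3%. These values include the flanks. Without flanks 2A3 was at 0% at H19, IGF2 and CDKN1C in both treatments. KCNQ1 was then at 2.5% untreated and 15.6% with aphidicolin in 2A3, and MEST at 19% in untreated 2A3. Aphidicolin K562 was at 0% at MEST without flanks. The 2A3 lists covered 91.03 and 135 Mb against 38.59 and 64.55 Mb in K562, and cut to equal covered length they kept none of the 10 genes.

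Around the genes, windows within 500 kb outside the spans were also tested. For macroH2A1 4 of 42 were higher under aphidicolin, against 6.71% of all windows, the largest being chr20:57900001-58000000 beyond GNAS (33.7 points, SE 3.55, limma adjusted p = 0.0424). For macroH2A1.2 3 of 36 were higher and 2 lower, against 15.3 and 6.75% of all windows, among them chr20:57700001-57800000 near GNAS (37.5 points, SE 5.41, limma adjusted p = 0.0287) and chr7:130400001-130500000 near MEST (-20.6 points, SE 3.84, limma adjusted p = 0.043). For γH2AX 3 of 42 were higher, against 3.79% of all windows, and all 3 lay near MEST. They were chr7:129600001-129700000 (2.48 to 51.0%, limma adjusted p = 0.029), chr7:130500001-130600000 (9.64 to 56.4%, limma adjusted p = 0.031) and chr7:130300001-130400000 (3.04 to 24.1%, limma adjusted p = 0.0449).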

How the data were processed

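Chromatin of fixed nuclei was cut with MNase and a short sonication, as the labels' protocols state. Each analysed library has 1 deposited island list holding position and the raw count of reads per island; the authors' counts carry no scaling to depth. Bowtie2 2.1.0, SICER 1.1, deepTools and hg19 are named in the submitters' processing notes, with no role given. The list names carry the settings 200 bp (window), 600 bp (gap) and 0.01 (FDR). The 14 input samples were not analysed here. Total reads per library are unknown, and calling error is not counting error, so no counting interval is given.

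Groups came from the sample titles and other labels. The members, gene lists and tests were chosen with earlier results of these data known. All 10 genes of the list are named. Windows outside the spans are named only within 500 kb and past the threshold, at most 3 per fit. The percent of each window and gene span inside islands was fitted with limma 3.58.1 (R 4.3.3). Rows covered in fewer than 2 lists of a fit were left out, title set was a term for γH2AX, and Benjamini-Hochberg adjustment ran over all rows at 0.05. Gene values of γH2AX also had a two-sided exact permutation test within title sets, for 10 genes, with no adjustment over the list. The fit was tested on simulated data with normal noise of equal spread in every row and large added differences. That checked the code and does not measure how reliable the calls on these percents are. Alternatives were flanks of 0 and 50 kb, equal covered length (islands kept by reads per kb down to the shortest list of the fit), the upper 50% of islands, an arcsine scale, log2 reads with a pseudocount of 0.01, no filter, a replicate block, and leaving out lists. Figures were drawn with matplotlib in Python 3.11.15. Promoters are RefSeq sequences of GRCh38.p14, and no coordinates were converted between builds.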

Additional observations from a re-analysis of the deposited data

Results flagged for a closer look

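The untreated γH2AX value of PEG10 in set 1 replicate 2, 28.3%, stood apart from the other 4 untreated lists, which ran from 0 to 7.2%. The group was 1 of 8 groups of 5 lists examined for such a value. For independent normal values chance marks about 1 in 20. These are percents from 3 title sets with 2 lists at 0, so that rate need not hold.

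The effect of aphidicolin differed between macroH2A1 and macroH2A1.2 at KCNQ1, by 13.9 points (limma adjusted p = 0.031), and at GNAS, by 15.95 points (limma adjusted p = 0.0437). At GNAS both targets had higher means under aphidicolin, and the difference between them turned to -6.94 points with lists cut to equal covered length. The GNAS difference passed in 1 of the 8 fits that left out 1 list, that without macroH2A1.2 untreated replicate 3 (limma adjusted p = 0.0191), and the other 7 gave limma adjusted p from 0.0668 to 0.134. Target and title set cannot be told apart in either comparison.

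The γH2AX difference at CDKN1C was 31.16 points larger in title set 1 than in set 2 (limma adjusted p = 0.0281). It was above 0 in both sets.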

How the results depend on the processing

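With 2 lists per macroH2A group the calls rested on each list. Under macroH2A1 the 1 gene higher and the 1 gene lower both became 0 with a flank of 0 or 50 kb, the upper 50% of islands, equal covered length, log2 reads or no filter, and under macroH2A1.2 the 2 genes lower became 0 with either flank or no filter and 1 with the upper 50% of islands, the arcsine scale or log2 reads. Leaving out 1 list gave 0 to 0 for each of these counts. limma reported its variance estimate as unreliable for both fits with no filter. The replicate block gave 0 genes in each direction for macroH2A1, macroH2A1.2 and γH2AX. Replicate numbers were only shared. For same-numbered untreated and aphidicolin lists, deviations from the mean of their own group were correlated over windows, not the coverage itself. The correlations were 0.0106 (macroH2A1), -0.0898 (macroH2A1.2), -0.0699 (γH2AX, set 1) and 0.153 (γH2AX, set 2), with 2 pairs each. No paired analysis was possible for macroH2A1 against macroH2A1.2, because the 2 sets share only replicate number 1. For γH2AX the 0 genes higher became 5 on the arcsine scale, 5 on log2 reads (with 1 lower in place of 0), 2 with title sets 1 and 2 only, 2 with set 1 only, and 0 to 3 when 1 list was left out. MacroH2A1 against macroH2A1.2 called 3 genes in place of 5 at equal covered length. The difference of the effect between targets called 1 gene in place of 2 with no flank or equal covered length, 0 with 50 kb, 0 to 2 higher and 0 to 1 lower when 1 list was left out. Between title sets it called 0 in place of 1 with no flank or equal covered length, and 0 to 3 higher and 0 to 1 lower without 1 list. At equal covered length GNAS reversed, to -2.973 points for macroH2A1 and -6.937 for the difference between targets. The cause of these changes was not tested.

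At a minimum of 10% in place of 50% the number of genes was 8 in place of 4 (untreated macroH2A1), 7 in place of 4 (aphidicolin macroH2A1), 5 in place of 3 and 5 in place of 2 (untreated and aphidicolin macroH2A1.2) and 2 in place of 0 (aphidicolin γH2AX). At 90% it was 2, 1, 0 and 0 for the macroH2A groups. At equal covered length the sh-RFP list touched 1 gene in place of 7 and each 2A3 list 0 in place of 4. With no flank aphidicolin K562 of set 3 touched 0 in place of 1, and 2A3 touched 2 untreated and 1 with aphidicolin in place of 4 each.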
